A study of Mus musculus with 24 samples.

Results

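The regions described here are 859 differentially 5-hydroxymethylated windows (DhMRs) of the mouse genome that lie in 3 segments rich in repeated sequence. They are part of the 20726 DhMRs listed between Wt25 and AA10 mouse ESCs. The segments were chosen by the density of windows higher in AA10 cells, and every listed window whose midpoint fell in them was taken. Chromosome 1 from 118.1 to 118.18 Mb held 187 windows, chromosome 12 from 19 to 25 Mb held 431, and chromosome 18 from 3 to 3.24 Mb held 241. Because density chose them, the counts per segment are a description and were not tested. Both lines came from mouse ESCs that lack *Tet1*, *Tet2* and *Tet3*, with a mixed C57BL/6J-129V background, and were grown in 2i and LIF. Wt25 is a single clone expressing human wild-type Tet3, and AA10 a single clone expressing Tet3 with both cdk5 phosphorylation sites changed to alanine, each made by lentiviral transduction and puromycin selection. DNA carrying 5hmC was pulled down with an antibody (5hmC-DIP) and sequenced in 3 libraries per line. The lists pool these libraries and give positions only, without the read count, fold change or *P*-value of a window, so no spread between replicates can be given for any window below.

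Tet enzymes oxidise 5-methylcytosine to 5-hydroxymethylcytosine (5hmC), mostly at CpG dinucleotides, so a stretch of DNA without a CpG offers them little substrate. Segmental duplications are long stretches present in several near-identical copies, often as neighbouring units of a cluster, whereas interspersed repeats are short copies of transposable elements scattered over all chromosomes. In both, a sequencing read may align equally well to several places, and the study's alignments kept only reads that the aligner placed at a single position. The study's methods give paired-end reads of 50 bp.

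Sequences of windows on chromosomes 1 and 12 show the kinds of DNA involved. Members that share at least 1 stretch of 32 bases were grouped into families, and the lines below give the window with most partners in each of the 2 largest families of chromosome 1, then the chromosome 1 window with most CpGs. They are read 5′ to 3′ on the plus strand of GRCm38, and capitals mark the CpGs.
chr1:118102603-118102800: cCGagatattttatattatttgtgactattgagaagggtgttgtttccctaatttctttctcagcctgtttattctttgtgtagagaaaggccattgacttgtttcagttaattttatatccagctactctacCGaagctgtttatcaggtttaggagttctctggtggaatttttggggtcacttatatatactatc
chr1:118114203-118114400: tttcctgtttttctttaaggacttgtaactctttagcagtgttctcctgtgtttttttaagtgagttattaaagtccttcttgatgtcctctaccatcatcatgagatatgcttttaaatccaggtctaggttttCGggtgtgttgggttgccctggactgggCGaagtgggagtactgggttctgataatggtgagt
chr1:118150003-118150200: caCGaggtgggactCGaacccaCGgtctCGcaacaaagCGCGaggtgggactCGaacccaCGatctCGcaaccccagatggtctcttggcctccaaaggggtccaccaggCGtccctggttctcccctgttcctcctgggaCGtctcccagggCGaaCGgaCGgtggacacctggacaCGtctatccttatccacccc
All 3 lie outside annotated genes and are marked as repeats along their whole length in the reference. The first, which is also the first window of the segment, holds 2 CpGs and belongs to a family of 11 windows. It had 24027 other copies in the genome, counting matches of at least 90% identity over at least 90% of the window, and 12492 of these reached 95%. The second, from a family of 9 windows, also holds 2 CpGs and had 9357 copies. The third holds 15 CpGs, had 295 copies and shared no stretch of 32 bases with another member of its segment.

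The families of chromosome 12 were smaller. The next lines give the windows with most partners in its 2 largest families, of 6 and 4 windows, again with the CpGs in capitals.
chr12:22353803-22354000: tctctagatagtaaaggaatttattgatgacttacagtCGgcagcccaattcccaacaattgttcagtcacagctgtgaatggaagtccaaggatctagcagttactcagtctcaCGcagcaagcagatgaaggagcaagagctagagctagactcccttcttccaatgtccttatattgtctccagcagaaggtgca
chr12:22321803-22322000: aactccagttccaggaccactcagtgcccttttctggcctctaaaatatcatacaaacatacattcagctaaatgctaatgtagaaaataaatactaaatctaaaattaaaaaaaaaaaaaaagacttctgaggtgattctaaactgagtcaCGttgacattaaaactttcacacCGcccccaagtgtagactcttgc
The first of these is repeat-marked along its whole length and had 2356 other copies. The second lies in an intron of the pseudogene *Gm6838* and had 11 copies, of which 3 reached 95% identity.

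The chromosome 12 windows stand in a duplicated block, and a pair of sequences shows how alike its copies are. The first line is the member with most CpGs, 27 of them, and the second is its counterpart further along chromosome 12, which is not a listed window. Capitals mark the 2 bases that differ.
chr12:22466603-22466800: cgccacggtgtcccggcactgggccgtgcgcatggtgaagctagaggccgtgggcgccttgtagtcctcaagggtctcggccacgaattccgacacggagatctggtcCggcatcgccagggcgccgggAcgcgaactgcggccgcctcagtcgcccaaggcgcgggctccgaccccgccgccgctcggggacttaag
chr12:23634362-23634559: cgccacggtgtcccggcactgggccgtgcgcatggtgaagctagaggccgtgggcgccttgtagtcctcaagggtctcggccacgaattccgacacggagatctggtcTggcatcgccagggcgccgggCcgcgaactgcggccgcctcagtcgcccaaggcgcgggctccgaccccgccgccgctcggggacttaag
The counterpart holds 26 CpGs, and the pair is 98.99% identical. Another copy of the listed window in the genome reached 99.5% identity, over at least 90% of its length. RefSeq places the listed window in an exon of *Gm10476*, a predicted protein-coding gene, and GENCODE places it in the processed pseudogene *Gm49251*. Of the windows that were identical to their counterpart over all 198 bases, the one with most CpGs reads as follows, with its 11 CpGs in capitals.
chr12:22377403-22377600: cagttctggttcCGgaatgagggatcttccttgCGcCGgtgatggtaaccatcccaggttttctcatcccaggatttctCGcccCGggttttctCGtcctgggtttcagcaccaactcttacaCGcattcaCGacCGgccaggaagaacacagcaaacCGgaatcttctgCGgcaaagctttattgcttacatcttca
The same 198 bases stand on the same strand at chr12:23536414-23536611. This pair and the one before it were chosen after their values had been seen.

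Of the 859 windows, 824 were higher in AA10 and 35 in Wt25 cells, and 41.6% of all listed windows were higher in AA10. Since density of AA10 windows chose the segments, their excess of AA10 windows and their large runs follow from that choice. The 187 windows of chromosome 1 and the 241 of chromosome 18 were all higher in AA10, as were 396 of the 431 on chromosome 12. Over the chromosomes, 0.0652% of the 200 bp bins without unknown bases are listed as higher in AA10 and 0.0914% as higher in Wt25. How many of these bins could be tested by the authors is not known from the lists.

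Each segment turned on a single run of windows higher in AA10. A run is a series of at least 20 neighbouring listed windows of the same direction with gaps of at most 10000 bp, and the lists held 49 of them. By number of windows the runs of chromosomes 12, 18 and 1 ranked 1, 2 and 3, with 387, 241 and 187 windows, and the largest of the other 46 had 171. The run of chromosome 1 spanned 68.2 kb, from 118102603 to 118170800, and 54.8% of its 341 bins were listed. The run of chromosome 12 spanned 177.4 kb, from 22305803 to 22483200, with 43.6% of its 887 bins listed. That of chromosome 18 was the longest and the sparsest, with 227.8 kb from 3007403 to 3235200 and 21.2% of its 1139 bins.

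Within the runs, most windows stood directly beside another. On chromosome 1 the next window began 200 bp further on, in the adjoining bin, for 136 of 186 neighbours (73.1%). This held for 244 of 386 neighbours (63.2%) on chromosome 12 and 99 of 240 (41.2%) on chromosome 18. The median distance between starts was 200 bp, 200 bp and 400 bp. Joined where they touched, the windows formed 51 regions on chromosome 1, 143 on chromosome 12 and 142 on chromosome 18. The longest unbroken blocks held 27 windows (5.4 kb, from 118143603 to 118149000), 15 windows (3 kb, from 22350603 to 22353600) and 10 windows (2 kb, from 3151203 to 3153200). Windows that touched no other made up 9.63%, 15.2% and 39.4% of the 3 runs. The largest steps between starts were 7.4, 6.8 and 9.4 kb.

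The windows were not spread evenly along the runs. On chromosome 1 the listed share was 56.0% to 60.0% in the first 3 steps of 10 kb, 88.0% between 40 and 50 kb and 12.2% in the last step. On chromosome 12 it reached 84.0% between 40 and 50 kb and lay between 12% and 24% in every step beyond 110 kb. Chromosome 18 had a pair of separate maxima, 64% between 20 and 30 kb and 48.0% between 140 and 150 kb.

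**Figure D1:**
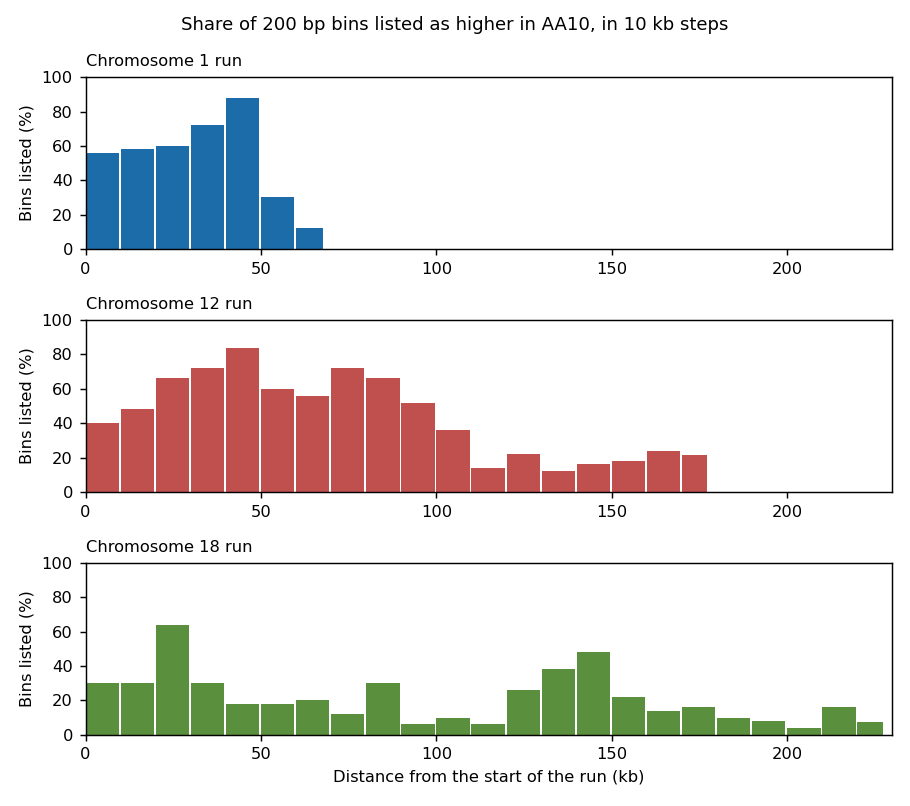
Share of the 200 bp bins listed as higher in AA10 cells (%), in steps of 10 kb from the start of each run; a narrower last bar stands for a shorter last step. The highest step held 88.0% of its bins on chromosome 1, 84.0% on chromosome 12 and 64% on chromosome 18.

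The borders of the runs differed in kind. On chromosome 1 the nearest listed window before the segment, from 118091003 to 118091200, lay 11.4 kb before its first member and was also higher in AA10. A smaller run of 21 AA10 windows, from 118027203 to 118063800, ended 38.8 kb before the first member. After the last member, from 118170603 to 118170800, no window was listed for 228 kb, up to an AA10 window at 118398603. On chromosome 18 the first member, from 3007403 to 3007600, was the first listed window of the chromosome. After the last member, which starts at 3235003, the next listed window began at 3252803, and 10 windows higher in AA10 and 0 higher in Wt25 followed up to 3.5 Mb. On chromosome 12 the first and last members of the 6000 kb segment, at 19203003 and 24712803, were isolated AA10 windows. The nearest listed windows outside were an AA10 window 336 kb before and a Wt25 window 413 kb after.

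Bins without a CpG were rarely listed in any of the runs. Of the 707 bins without a CpG, 7 (0.990%) were listed, against 808 of the 1660 bins with at least 1 CpG (48.7%). On chromosome 1, 1 of 92 bins without a CpG was listed, and on chromosomes 12 and 18 3 of 218 and 3 of 397. Above 0 the listed share did not climb with the number of CpGs. On chromosome 12 it was 60.6% with 1 CpG, 58.1% with 2, 57.1% with 3 and 48.7% with 4 or more. Chromosome 18 ran from 38.6% with 1 CpG to 24.4% with 4 or more, and chromosome 1 from 78.2% with 1 CpG over 62.1% with 2 to 81.5% with 4 or more. These shares count every bin of the runs, and neighbouring bins share their surroundings. Windows without a CpG made up 0.815% of the members, 0.320% of the other AA10 windows and 0.431% of the other Wt25 windows. Unlisted bins include those that the authors' filters for simple and low-complexity sequence or IgG-DIP signal removed. They also include any bins below the minimal read count that the authors required. Neither kind was separated here from bins that did not differ.

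**Figure D2:**
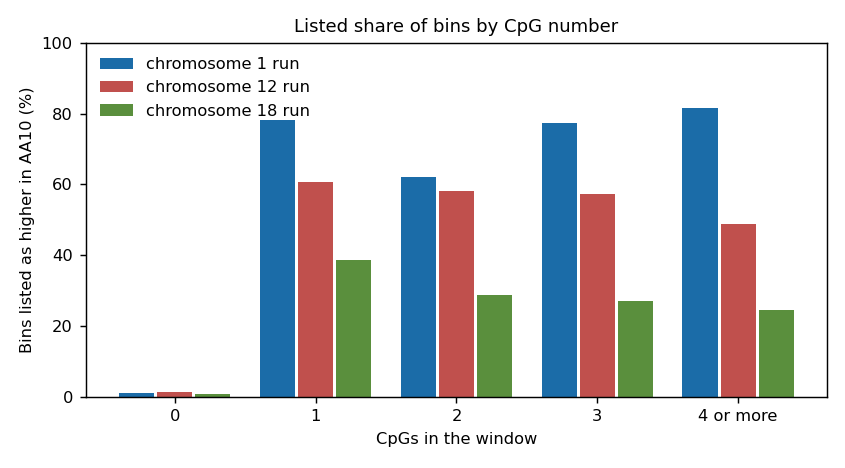
Share of the 200 bp bins of each run that were listed as higher in AA10 (%), by the number of CpGs in the 198 bases of the window. Bins without a CpG were listed in 1.09%, 1.38% and 0.756% of cases on chromosomes 1, 12 and 18, and bins with 1 CpG in 78.2%, 60.6% and 38.6%.

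The members held a mean of 2.49 ± 2.45 CpGs per window (SD over 859 windows). This was fewer than in all other listed windows but more than in the unlisted bins of the runs. Those of chromosome 1 held 3.15 ± 2.90, those of chromosome 12 higher in AA10 held 2.36 ± 2.48, and those of chromosome 18 held 2.00 ± 1.74. All other AA10 windows held 3.23 ± 2.34 (7806 windows) and all other Wt25 windows 3.25 ± 2.52 (12061 windows). The other dense runs lay nearer to the members, at 2.70 ± 2.30 for AA10 and 2.51 ± 2.60 for Wt25. The unlisted bins of the runs held fewer, with 1.04, 1.50 and 1.36 CpGs per window on chromosomes 1, 12 and 18. GC content was 44.3% on chromosome 1, 46.1% on chromosome 12 and 40.0% on chromosome 18, against 46.1% in the other AA10 windows. The SD of CpG number within each segment was wider than the distance between the means of the listed windows given here.

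The share of repeat-marked sequence differed between the segments, and no repeat class was assigned, since the annotations used here hold none. Lower-case letters of the reference mark interspersed repeats and low-complexity sequence, and they covered 91.6% of the bases of the chromosome 1 members. The share was 45.7% on chromosome 12 and 64.2% on chromosome 18, and 30.4% and 30.7% in the other AA10 and Wt25 windows. Those other windows had passed the authors' filters, and no share over all bins of the genome is given here. On chromosome 1, 177 of 187 windows were marked over more than 50% of their length, and 1 carried no mark. The unlisted bins of the chromosome 1 run were marked over 71.1% of their bases. On chromosomes 12 and 18, listed and unlisted bins of the run differed little, with 45.8% and 43.5% on chromosome 12 and 64.2% and 63.2% on chromosome 18.

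The description of these segments as multi-copy held most fully for chromosome 12. Every stretch of 32 bases in each window was counted on both strands of the genome. In the chromosome 12 windows higher in AA10, 96.1% of the stretches occurred more than once, and 319 of 396 windows (80.6%) had no unique stretch at all. The share was 76.3% on chromosome 1 and 65.4% on chromosome 18, where 31.6% and 21.2% of the windows had no unique stretch. In the other AA10 and Wt25 windows it was 12.6% and 12.9%, and in the other dense runs 28% and 28.3%. Longer stretches divided the segments further. At 50 bases, the length of the reads, 93.7% of the stretches were repeated in the AA10 windows of chromosome 12, 61.6% on chromosome 1 and 49.1% on chromosome 18, against 7.46% in the other AA10 windows. Of the stretches of 100 bases, 86.5% were repeated in the AA10 windows of chromosome 12, against 38.1% on chromosome 1 and 25.6% on chromosome 18. On chromosome 18, 121 of 241 windows (50.2%) were unique at each stretch of 100 bases, as were 67 of 187 (35.8%) on chromosome 1 but 11 of 396 (2.78%) on chromosome 12. The repeats were thus high in number and short-matched on chromosome 1, with a median of 59 copies per stretch of 32 bases, and few and long-matched on chromosome 12, with a median of 5. Within the chromosome 12 run, unlisted bins were about as repetitive as listed ones, with 96.53% and 97.12% of their 32-base stretches repeated. On chromosome 1 the shares were 61.0% in unlisted and 76.3% in listed bins, and on chromosome 18 63.2% and 65.4%.

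**Figure D3:**
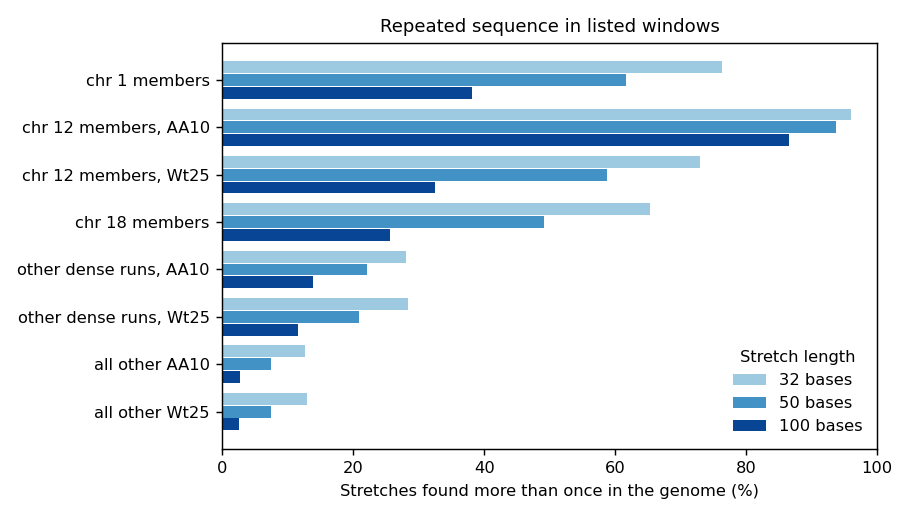
Share of the stretches of 32, 50 and 100 bases of a set of listed windows that occur more than once in the genome (%). At 100 bases the chromosome 12 windows higher in AA10 stood at 86.5%, the chromosome 1 and 18 windows at 38.1% and 25.6%, and all other AA10 and Wt25 windows at 2.68% and 2.48%.

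Whole windows were then aligned to the genome. On chromosome 1, 91 of 187 windows had at least 1000 other copies of at least 90% identity and 13 had none, with a median of 700. On chromosome 18 the windows fell apart, since 61 of 241 had at least 1000 copies, 95 had 1 to 9 and 29 had none. On chromosome 12, 263 of 396 AA10 windows had 10 to 99 copies and 3 had none, with a median of 36. A copy of at least 95% identity was found for 141 windows on chromosome 1 (75.4%), 391 AA10 windows on chromosome 12 (98.7%) and 181 windows on chromosome 18 (75.1%). A copy identical over the whole window was found for 41 (21.9%), 291 (73.5%) and 37 (15.4%).

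Copies inside the same segment were commonest on chromosome 12, whose segment of 6000 kb is also far longer than those of 80 and 240.0 kb. There, 390 of the 396 AA10 windows had a copy of at least 95% identity elsewhere in the segment, with a median of 4.5 such copies, against 43 of 187 on chromosome 1 and 48 of 241 on chromosome 18. An inner copy was itself listed for 31 of the 43 windows on chromosome 1 and 29 of the 48 on chromosome 18. In the runs there, 54.8% and 21.2% of all bins were listed. On chromosome 12 this was so for 33 of the 390, in a segment with 431 listed windows over 6000 kb. These counts depend on how densely each segment is listed, and whether they exceed that density was not tested. Distances between repeated stretches of the reference were then counted in steps of 1 kb. Among pairs of equal 32-base stretches at least 1 kb apart, the commonest step on chromosome 12 was 1158 to 1159 kb, followed by 1345 to 1346 kb, and 68.1% of all stretches of the segment recurred within it. On chromosome 18 the commonest steps were 49 to 50 kb and 60 to 61 kb, with 12.5% of the stretches recurring. On chromosome 1 they were 23 to 24 kb and 13 to 14 kb, with 15.5%. The commonest step held 3.48% of the pairs on chromosome 12, 8.71% on chromosome 18 and 11.0% on chromosome 1. These small shares do not establish a regular unit.

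The chromosome 12 run had a counterpart about 1.16 Mb downstream in which no window was listed. The search took only copies on chromosome 12 that started 1 to 1.3 Mb further on. Of the 387 windows of the run, 385 had such a copy of at least 95% identity, all on the same strand, between 23458037 and 23650891. Over the whole genome the run windows had a median of 8 copies of at least 95% identity, so this counterpart is not their only copy. The offsets ran from 1.15 to 1.17 Mb, the median identity was 100% and the lowest 97.1%, and 267 windows (69.0%) were identical to their copy over all 198 bases. The counterpart spans 193 kb, about 964 bins, and holds 1.95 CpGs per 198 bases against 1.87 in the span of the run. The lists held 0 AA10 and 0 Wt25 windows in it. Over all chromosomes, 0.0652% of bins are listed as higher in AA10 and 0.0914% as higher in Wt25. At such shares few or none of 964 bins would be listed, so these shares cannot tell whether the empty counterpart is unusual. A read pair that lies wholly inside an identical window has more than 1 equal placement in the reference. By the study's methods the DNA fragments were at least about as long as a window, so most pairs reach beyond it. Their placement also depends on the sequence beside the window. How the reads of the 6 libraries were placed between the run and its counterpart was not tested, since the lists hold no reads. The number of copies of the block in each clone was not tested either, and the gDNA input libraries were not analysed here, so a higher listed 5hmC-DIP signal cannot be told apart from more copies. Identity varied along the run, with 232 of 308 windows (75.3%) identical in its first 100 kb and 35 of 79 (44.3%) in the rest.

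**Figure D4:**
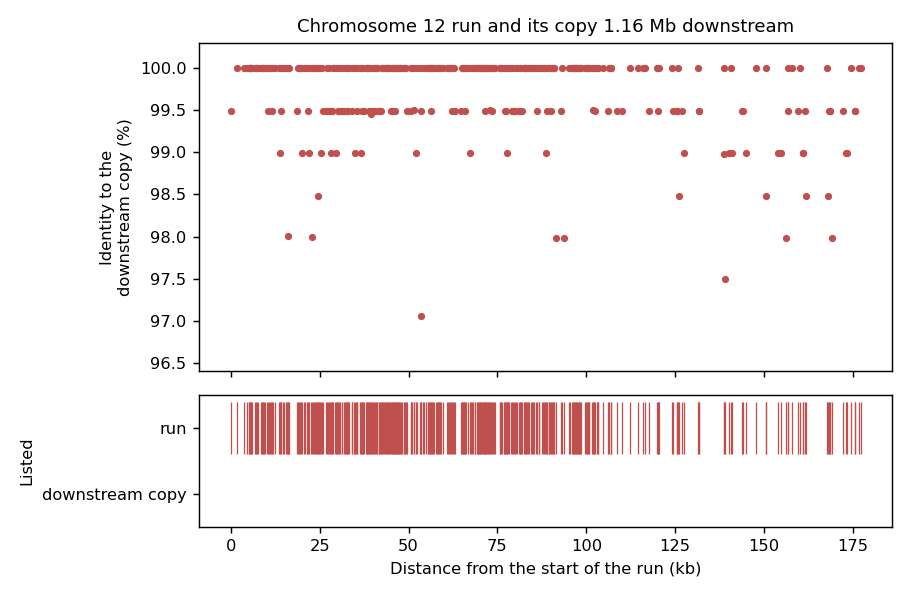
Upper panel, identity (%) of each of 385 windows of the chromosome 12 run to its copy about 1.16 Mb downstream, against the distance from the start of the run (kb), where each point is a window. Lower panel, listed windows of the run and of the copy, where the lane of the copy is empty because 0 windows were listed in it. Over all chromosomes, 0.0652% of bins are listed as higher in AA10 and 0.0914% as higher in Wt25.

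Few of the members lay in genes, but no share for other listed windows or unlisted bins is given here to set beside this. RefSeq has no gene in the chromosome 1 segment, so 0 of its 187 windows had their midpoint in a gene. In RefSeq genes lay 61 of 396 AA10 windows on chromosome 12 (15.4%) and 2 of 241 on chromosome 18 (0.830%). By GENCODE, which has no *Gm10476*, 25 of the 396 (6.31%) did. On chromosome 12, *Gm10476* (22414375 to 22467255, minus strand) held 45 windows, 3 of them in exons. The pseudogene *Gm6838* (22320384 to 22326086, minus strand) held 13, with 2 in exons, and the predicted gene *Gm46340* within the run held 0. GENCODE lists 2 further pseudogenes in the run, *Gm49248* with 6 windows and *Gm49251* with 1. The nearest RefSeq protein-coding genes were the predicted *Gm46305*, 546 kb before the run, and *Gm40864*, 57.1 kb after it. Over the whole chromosome 12 segment RefSeq has 107 genes, 78 of them with Gm symbols for predicted genes and 7 with Rik symbols, and 43 are protein coding, 38 pseudogenes and 23 non-coding RNAs. Members lay in 11 of the 107, namely 4 protein-coding genes, 4 pseudogenes, 2 non-coding RNAs and *Gm30124*, which RefSeq puts in none of these classes. The segment has no vomeronasal receptor, olfactory receptor or ribosomal protein symbol. GENCODE adds 1 zinc finger symbol there, *Zfp125*, a transcribed pseudogene that held 1 window higher in Wt25.

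The start of chromosome 18 carries vomeronasal type 1 receptor genes, which encode pheromone receptors of the vomeronasal organ. The run there spans *Vmn1r238*, the only protein-coding gene in it, and the pseudogenes *Vmn1r-ps151* and *Vmn1r-ps152*. *Vmn1r238* (3122492 to 3123412, minus strand) and *Vmn1r-ps152* held 0 windows, and *Vmn1r-ps151* (3026901 to 3027802) held 2. GENCODE adds the processed pseudogene *AC121796.1*, with 1 window. *Crem*, which encodes a cAMP-responsive transcription factor, begins 31.2 kb after the run (3266354 to 3337773, minus strand), and 2 of the 10 AA10 windows that followed the segment lay in it. On chromosome 1 no RefSeq gene overlaps the segment. *Tsn*, which encodes the nucleic acid-binding protein translin, lies 128 kb after the run (118298514 to 118311461, minus strand), and *B020011L13Rik* lies 299 kb before it. GENCODE has nearer protein-coding models, *Gm29106* 5.74 kb after the run and *Gm7145* 116 kb before it. *Gm29106* starts at 118176542, inside the segment, and held 0 of the windows.

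For most members, the gene named in the deposited lists does not hold the window. *Tsn* was given for all 187 windows of chromosome 1. *Vmn1r238* was given for 225 and *Crem* for 16 windows of chromosome 18. The non-coding *Gm4425* was given for 390 AA10 windows and 21 Wt25 windows of chromosome 12, and by its RefSeq position (22115756 to 22156646) it held 0 of the AA10 and 3 of the Wt25 windows. All 12 gene identifiers given for members could be matched to a symbol.

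The 35 windows higher in Wt25 all lay on chromosome 12 and outside the run, 30 before and 5 after it. The nearest were 152 kb before and 478 kb after the run. They held 3.69 ± 2.60 CpGs per window, against 2.36 ± 2.48 in the 396 AA10 windows of the segment. Of their 32-base stretches 73.0% were repeated, of their 100-base stretches 32.5%, and 4 of 35 had an identical copy elsewhere. The direction was listed only once for each window, so these values compare positions and not samples.

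Most Wt25 windows stood together before the run. Between 21.8 and 22.2 Mb there were 21, of which 3 lay in *Gm4425*, starting at 22117203, 22133003 and 22153803, and 1 in the pseudogene *Gm9282*, at 21955003. A group of 4 started at 21867803, 21868803, 21869003 and 21870603, where the window at 21868803 held 10 CpGs, was wholly repeat-marked and had a median of 231 copies of its 32-base stretches. A further group started at 21888403, 21889603, 21894803 and 21895003 and held 1 to 3 CpGs per window. Another started at 21936003, 21938403, 21940203, 21947003 and 21947203. Windows at 21830003, 21856403, 21924603 and 22082003 stood alone.

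Further upstream, 9 Wt25 windows were scattered over 2.12 Mb. They started at 19360403, 19424803, 20214003, 20228403, 20231803, 20233203, 20896403, 21076403 and 21479603. That at 19424803 lay in *Gm5784*, and that at 20896403, with 9 CpGs, in *3110053B16Rik*. The window at 20214003 and those from 20228403 to 20233400 lay in the GENCODE transcript *Gm49692*, the latter beside a pair of AA10 windows at 20226803 and 20227003. The window at 21076403 lay in *Asap2* by GENCODE but in no RefSeq gene. The window at 20233203 held 10 CpGs and had no repeated 32-base stretch. Of the 5 after the run, those at 22961003, 22961203 and 22969803 lay in the non-coding *2410018L13Rik*, and those at 23025403 and 23747403 in no RefSeq gene.

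The other 9 AA10 windows of the chromosome 12 segment lay outside the run. Those at 22283403, 22294003 and 22294203 were close before it. The last, at 24712803, lay in an exon of *Rrm2*, which encodes a subunit of ribonucleotide reductase, held 9 CpGs and had 8.98% of its 32-base stretches repeated. The window at 21234003 lay in *Asap2*, an Arf GTPase-activating protein gene, with 1.80% repeated, and that at 21016403 in *Gm30124* and *Gm5977*, with 92.2% repeated. The remaining windows started at 19203003, 20226803 and 20227003.

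Sequence shared with the members also occurred in listed windows elsewhere. Outside the segments, 415 listed windows shared at least 1 stretch of 32 bases with a member of chromosome 1, and 156 of these (37.6%) were higher in AA10. For chromosome 12 they were 1080 windows with 426 higher in AA10 (39.4%), and for chromosome 18 they were 756 with 294 (38.9%). In all listed windows the share was 41.6%, but this includes the members, whose segments were chosen for their density of AA10 windows. It is therefore not the matching share for windows outside the segments. All listed windows outside the segments were 7806 higher in AA10 and 12061 higher in Wt25. Whether the windows that share sequence with members differ from these in direction was not tested.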

How the data were processed

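The authors aligned 5hmC-DIP reads uniquely to GRCm38 with STAR and removed duplicates with Picard. They ran MEDIPS on 3 libraries of each line over 200 bp bins. In MEDIPS, a DhMR needed a minimal read count, a *P*-value below 0.05 and a fold change of 1 or more. Bins with IgG-DIP peaks, simple tandem repeats or low complexity were then removed, and the rest were annotated with HOMER. The deposited lists hold positions and a gene, with 198 bases of each bin, and no depth or count. The members and lists were chosen with earlier results of these data known, and no test was made.

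Sequence came from GRCm38.p6 without patches and alternate loci, which repeat other sequence. Copies were found with BLASTN 2.17.0 (word size 28, at least 90% identity and coverage) and counted as listed where they shared at least 99 bases with a listed window. Repeat spacing used stretches found at most 10 times in a segment, in steps of 1 kb. Genes came from RefSeq and GENCODE vM21, by window midpoint. The genes named were those holding 3 or more members, or the 3 with most in a segment, and the nearest protein-coding genes; the windows named were every Wt25 window and those at the borders. Other genes were named where a Wt25 or isolated AA10 window lay in them. Python 3.11.15, numpy 2.4.6 and numba 0.67.0 were used, and 6 of 6 checks on simulated data gave the known answer.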

Additional observations from a re-analysis of the deposited data

How the results depend on the processing

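The lists hold no reads, so no library could be left out, no paired comparison made and no stricter threshold set. Of 43 alternative values, 18 stayed within 1.5 times the count or within the 95% interval over windows. That interval treats the windows as independent, although many touch or share sequence, so it may be too narrow and the tally is only a rough guide. Joining touching bins left 51, 181 and 142 regions on chromosomes 1, 12 and 18 (51, 150 and 142 higher in AA10), and joining bins within 1 kb left 10, 66 and 67 (10, 36 and 67 higher in AA10). The median distance between starts became 1000, 1000 and 1200 bp with touching bins joined, and the CpGs per 100 bp were 1.15 rather than 1.26. Without chromosome 1 the members held 2.30 CpGs per window and 52.3% marked bases, and without chromosome 18 they held 2.67 CpGs. Without chromosome 12 marked bases made up 76.2%. Repeated stretches, 82.2% at 32 bases, were 72.8% at 50 and 56.7% at 100 bases, 70.2% without chromosome 12 and 88.8% without chromosome 18. With patches and alternate loci, an alternative chosen after seeing the data, they were 82.4%. Members inside genes were 8.38% by RefSeq and 4.77% by GENCODE. No paired analysis was possible because the lists pool the libraries and no result comes from a test.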
